A study of Mus musculus with 14 samples.

Results

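Pregnancy was compared with the virgin state in P4, the sorted mammary fraction that the labels describe as CD24+CD29hi and enriched in mammary stem cells. The comparison rests on 4 of the 14 arrays of the series, chosen by their titles: 2 of P4 cells from pregnant wild type FVB/N-J mice and 2 of P4 cells from virgin wild type FVB/N-J mice. Cells were freed from the gland mechanically and with enzymes and sorted by flow cytometry, and each array carried the sorted cells' RNA in Cy5 and one common reference, a pool of RNA from 11 mouse cell lines, in Cy3. Values are therefore log2 ratios of the sorted cells to that reference, where 0 is the reference's level, and a difference of 1 between arrays is a 2-fold change. No label gives the day of gestation or the animals' ages, or says whether the 2 replicates of a group came from separate animals or pools, so the spread measured here may be partly technical. The P5 fraction (labelled luminal progenitor enriched, with the same gate in its title as P4) and the P6 fraction (CD24lo, labelled differentiated mammary epithelial cells), each with 2 virgin and 2 pregnant arrays, entered the model and served to show where P4 differed.

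The mammary epithelium has an inner luminal layer, whose alveolar cells make milk protein and milk fat, and an outer basal layer of mostly myoepithelial cells, which contract in response to oxytocin and eject the milk. Sorted CD29hi basal cells include cells that can regrow a gland on transplantation, and Wnt ligands and R-spondins are among the signals known to sustain them. In pregnancy, progesterone and prolactin drive the growth of alveoli and the switch to lipid and milk synthesis, while the fat tissue around the ducts is displaced.

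The P4 label was checked against marker lists. Of 17 basal and myoepithelial markers, 16 were higher on both virgin P4 arrays than on every virgin P5 and P6 array, and 15 were so in pregnancy. Their median log2 ratio in virgin mice was 4.59 in P4, 0.69 in P5 and 1.16 in P6, while the median of 16 luminal markers was 1.46 in P4, 4.12 in P5 and 0.35 in P6. In pregnant mice the basal medians were 3.94 in P4, 1.80 in P5 and 0.94 in P6. The luminal medians lay closer together there, at 1.37 in P4, 1.99 in P5 and -0.13 in P6. Markers of vessel-lining endothelial cells were also high in P4: 13 of 15 lay above every virgin P5 and P6 array, and 9 of 15 did so in pregnancy. Their median in virgin mice was 3.08 in P4, 1.08 in P5 and 2.41 in P6. In pregnant mice it was 3.07 in P4, 1.14 in P5 and 1.61 in P6. Fibroblast markers were low in P4 (median -0.65 in virgin mice, against 4.59 in P6). The share of all genes that lie above every P5 and P6 array was not counted, so the marker counts have no such share beside them. In such sorted bulk samples, fewer cells of a type and less RNA per cell cannot be told apart.

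The pregnant arrays did not resemble each other as closely as the virgin ones. Across genes, the 2 virgin P4 arrays correlated at 0.947 and the 2 pregnant arrays at 0.842, and the median gene's SD between replicates was 0.114 in virgin and 0.185 in pregnant cells. The replicate 1 arrays of the 2 conditions lay on different slides and were scanned on different days, so that pair confounds condition with slide and scan. Pregnant replicate 1 was the only P4 array scanned without the extended dynamic range. It held 236 saturated Cy5 spots, against 4 on pregnant replicate 2 and 0 on both virgin arrays. Replicate 2 of both conditions lay on 1 slide scanned on 1 day, so differences of the leading genes and lists are also given for the replicate 2 pair alone, as values without a test.

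Of 23645 genes tested, 883 (3.73%) differed between pregnant and virgin P4 cells at a limma adjusted p under 0.05, the rule for a called gene throughout. Of these, 352 (1.49%) were higher and 531 (2.25%) lower in pregnant cells. Called genes had a median log2 difference of 1.29 among the higher and -1.40 among the lower, and all 352 and all 531 kept their direction on the replicate 2 pair, where 244 and 392 differed by at least 2-fold. Of the 68 named called genes, 67 did so, the exception being Cxcl15. Of all genes with a value on that pair, 6.86% differed by at least 2-fold in either direction, and these arrays are part of the fit that made the calls. The median gene differed by -0.03 in the full comparison and -0.01 on the replicate 2 pair. Within-array loess sets each array's log ratios around 0, so a median near 0 follows largely from the processing. With median centring in place of loess the median of the full comparison was 0.15. The number of calls depended on each array. It was 205 without virgin replicate 1, 156 without virgin replicate 2, 337 without pregnant replicate 1 and 480 without pregnant replicate 2, where a lone remaining array is assumed to vary like the other groups. With the 4 P4 arrays alone it was 59, with slide as a fixed block 1237 (644 of the 883 among them) and with scan day as a fixed block 1752 (833 of the 883). Of the 68, 12 kept their call under each of 20 alternative settings with a test (Lep, Lgr5, Pappa, Scd1, Tnni2, Mybph, Adamts18, Abcg5, Amhr2, Areg, Sct and Smim3).

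**Figure D1:**
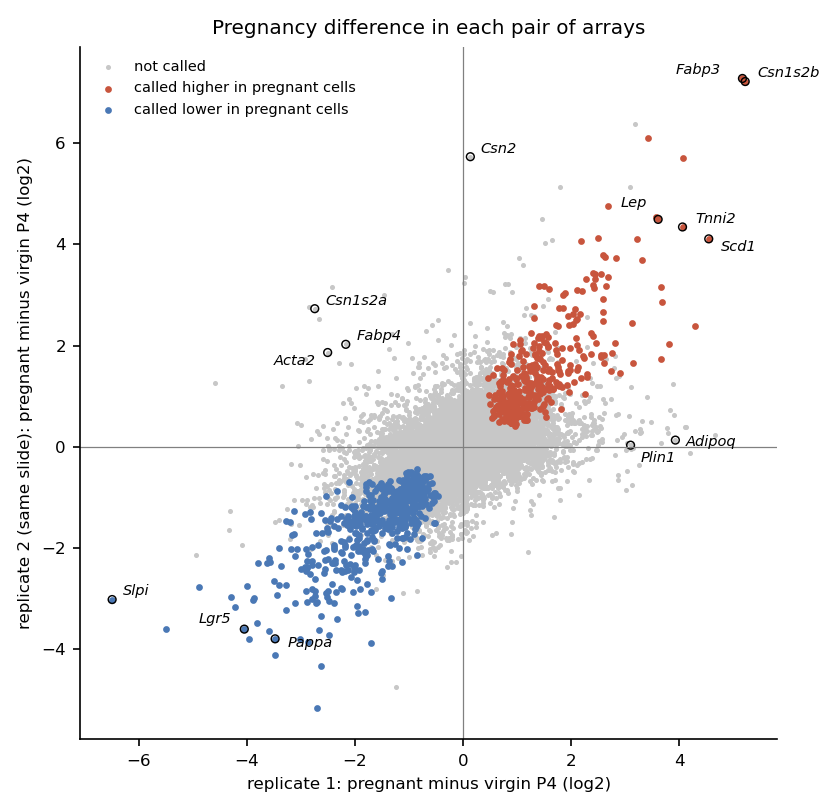
Each point is a gene; the horizontal axis is its log2 difference between the pregnant and virgin P4 arrays of replicate 1, the vertical axis that of replicate 2, which share a slide. Red and blue points were called higher or lower in pregnant cells and lie in the upper right and lower left. Adipoq and Plin1 differ on replicate 1 only, and Csn2 on replicate 2 only.

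Leptin, a hormone best known as a product of fat cells, was near the reference in virgin P4 cells and far above it in pregnant ones. Lep log2 ratios were 0.30 and 0.28 on the virgin arrays and 3.92 and 4.78 on the pregnant arrays. The groups did not overlap, and neither pregnant array came near the virgin level. The difference was 4.05 ± 0.25 (SE; adjusted p = 0.000376), or 16.6-fold, and 4.50 on the replicate 2 pair. Its promoter, as listed by RefSeq for build GRCm38.p6 (chr6:29059971-29060270, plus strand), is shown because Lep was the fat cell hormone called higher. Capitals mark its TATA box letters (TATAA or its reverse complement, here 2 overlapping matches), found in 28% of all genes with a listed promoter of 300 bases, from 250 before to 50 after the start site.
Lep: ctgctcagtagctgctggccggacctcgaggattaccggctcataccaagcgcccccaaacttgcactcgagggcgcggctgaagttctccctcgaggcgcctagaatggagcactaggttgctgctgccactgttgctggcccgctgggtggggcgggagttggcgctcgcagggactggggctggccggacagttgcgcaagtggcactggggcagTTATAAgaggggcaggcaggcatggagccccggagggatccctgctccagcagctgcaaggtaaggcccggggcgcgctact

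Scd1, the desaturase that makes monounsaturated fatty acids, moved in the same direction. Its log2 ratios were -0.53 and -0.67 in virgin cells and 4.02 and 3.44 in pregnant cells, with both pregnant arrays well above both virgin ones. Scd1 rose by 4.33 ± 0.31 (adjusted p = 0.000634), and by 4.11 on the replicate 2 pair.

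Lgr5, an R-spondin receptor that marks stem cells in several epithelia, moved the other way. Log2 ratios were 4.45 and 4.33 in virgin cells and 0.41 and 0.73 in pregnant cells, so both pregnant arrays had lost most of the signal. The difference was -3.83 ± 0.16 (adjusted p = 5.78e-05), and -3.61 on the replicate 2 pair. Pappa, a secreted protease that cleaves IGF-binding proteins and so frees IGF, had log2 ratios of 3.50 and 3.50 in virgin cells and 0.02 and -0.30 in pregnant cells. Its difference was -3.64 ± 0.15 (adjusted p = 5.78e-05), and -3.80 on the replicate 2 pair, again with no overlap. The other probe of Pappa gave a smaller difference (-1.46).

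The largest increases were those of Fabp3 and Csn1s2b. Fabp3, a fatty acid carrier of heart and lactating mammary gland, had log2 ratios of -1.07 and -1.66 in virgin and 4.10 and 5.62 in pregnant cells, and rose by 6.23 ± 0.97 (adjusted p = 0.0137). Csn1s2b, a casein, went from 0.07 and 0.18 to 5.29 and 7.40, a rise of 6.22 ± 1.13 (adjusted p = 0.0241). Cidea, a lipid droplet protein, went from 1.36 and 1.33 to 5.43 and 7.05 (difference 4.89 ± 0.92). In each of these the pregnant arrays also differed from each other, with replicate 2 higher, but stayed clear of the virgin pair. On the replicate 2 pair the 3 differed by 7.28, 7.22 and 5.72. The other Csn1s2b probe differed by 1.33. Sftpd, a collectin of innate defence, rose by 4.77, Chrdl2, an extracellular BMP-binding protein, by 3.72, and Matn2, a matrix protein, by 3.35. Chrdl2 lost its call in the scanner's own log ratios and with the authors' processed values, and its difference was as low as 2.01 among the settings. Fam234b rose by 3.66 on its brightest probe, but its 3 other probes differed by 0.07 to 0.10 and the mean over its probes by 0.98. Tnni2, the inhibitory subunit of fast skeletal muscle troponin, had log2 ratios of -0.28 and -0.04 in virgin and 3.79 and 4.31 in pregnant cells, and rose by 4.20 ± 0.31 (adjusted p = 0.000715). The remaining genes among the 12 largest increases were Scd1, Lep, Olah and Lpl, described with their groups. Without virgin replicate 2, 5 of the 12 kept their call (Chrdl2, Cidea, Csn1s2b, Fabp3, Lpl, Matn2 and Sftpd did not), and without pregnant replicate 1, 10 did (Cidea and Matn2 did not), with differences no smaller than 2.65 over that and every other array left out.

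The largest decrease was that of Slpi. Slpi, a secreted inhibitor of leukocyte proteases, had log2 ratios of 4.12 and 2.96 in virgin and -2.37 and -0.06 in pregnant cells, and fell by 4.76 on the log2 scale (SE 0.87, adjusted p = 0.0246), but its other probe differed by 0.01. Ly6d, a lymphocyte antigen 6 family member also found in epithelia, went from 3.70 and 2.30 to -1.79 and -1.31 (difference -4.55 ± 0.69). Aqp5, a water channel of secretory epithelia, went from 2.08 and 1.18 to -2.82 and -1.60 (difference -3.84 ± 0.55). In all 3 the virgin arrays also differed from each other by more than the median gene's spread, yet lay wholly above the pregnant arrays. On the replicate 2 pair they differed by -3.02, -3.61 and -2.78. Adamts18, a secreted metalloprotease, had tighter replicates, 4.40 and 4.55 in virgin and 0.81 and 0.90 in pregnant cells, and a difference of -3.62 ± 0.16 (adjusted p = 5.78e-05). The other Adamts18 probe differed by -0.11, and the mean over both by -1.86. Mybph, a myosin-binding protein, went from 3.28 and 3.32 to -0.54 and -0.16 (difference -3.65 ± 0.17, adjusted p = 6.18e-05). Serpinb11 (-3.93), Smim3 (-3.88), Fgg, a fibrinogen chain (-3.69), and Bcl3, a nuclear partner of NF-kappaB (-3.63), completed the 12 largest decreases with Lgr5, Areg and Pappa. Of these 12, 7 kept their call without pregnant replicate 1 (Aqp5, Fgg, Ly6d, Serpinb11 and Slpi did not), 11 without pregnant replicate 2, 8 without virgin replicate 1 and 10 without virgin replicate 2.

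**Figure D2:**
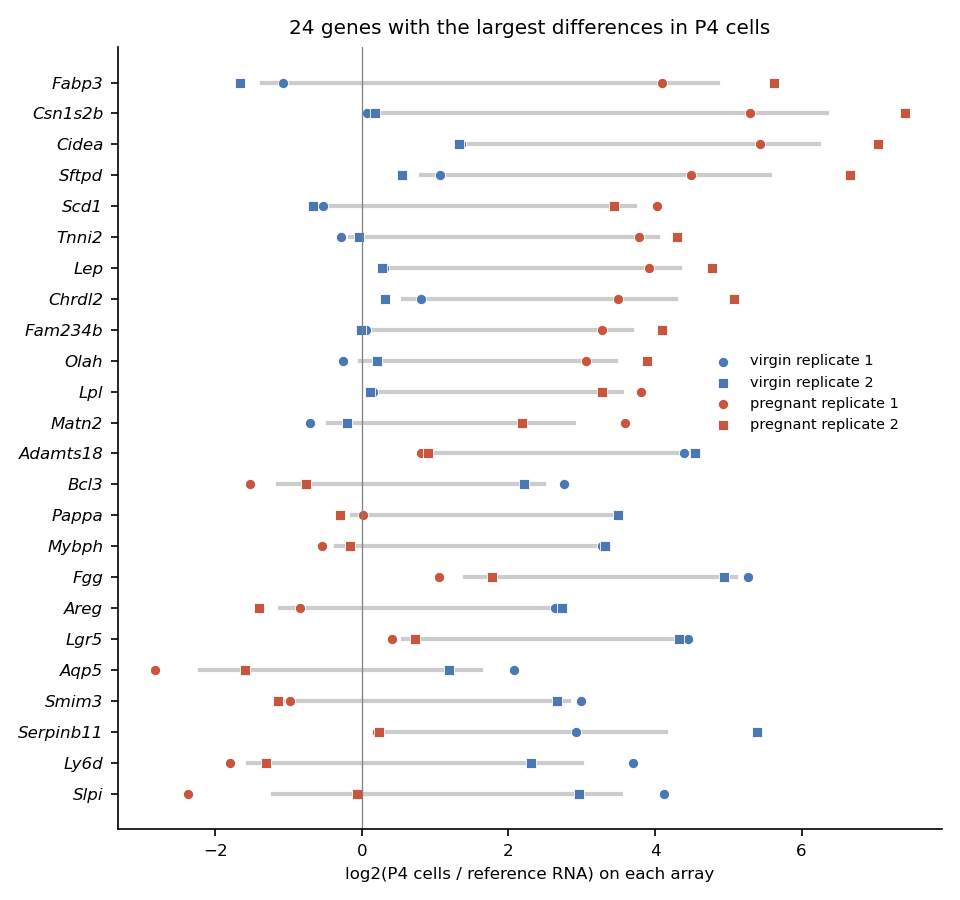
The 12 called genes with the largest increase and the 12 with the largest decrease in pregnant P4 cells that went the same way on the replicate 2 pair. The horizontal axis is the log2 ratio to the reference on each array, blue for virgin and red for pregnant, circles for replicate 1 and squares for replicate 2, and grey lines join the group means. No gene shown has overlapping groups, which also holds for 47.7% of all genes, while Slpi, Serpinb11 and Sftpd show wide replicate spread.

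Fatty acid and triglyceride synthesis genes were higher in pregnant P4 cells. This list and the others were chosen with earlier results of these data known, so their shares of called genes are descriptive. Of 25 genes tested, 11 rose and 0 fell (44%, against 3.73% of all genes), and the median member was higher by 1.21, against -0.03 for all genes. On the replicate 2 pair the median was 1.06. In P5 the list's median pregnancy difference was larger, 2.98, and in P6 it was 0.22. Acly and the carboxylases Acaca and Acacb, which carry citrate carbon into malonyl-CoA, rose by 2.40, 1.86 and 2.19, though each has 1 other probe with a difference in the opposite direction. Slc25a1, the carrier that exports citrate from mitochondria, rose by 1.76, and Me1, malic enzyme, which supplies NADPH, by 2.92. Me1 illustrates the replicate spread: its log2 ratios were -1.39 and -1.72 in virgin cells and 2.41 and 0.32 in pregnant cells, far apart but both above the virgin pair. Thrsp, a lipogenic regulator, was tighter, 1.59 and 1.01 in virgin and 4.00 and 4.45 in pregnant cells, and rose by 2.92 ± 0.30 (adjusted p = 0.00293). Thrsp lost its call in the scanner's own log ratios and with the authors' processed values, and its difference was as low as 1.56 among the settings. Acsl1, which activates long-chain fatty acids, went from 0.65 and 0.06 to 3.24 and 2.99 and rose by 2.76 ± 0.35 (adjusted p = 0.0064). The other members that rose were Acss2 (1.49), Scd2 (1.32) and Srebf1 (0.81), the last encoding the SREBP1 transcription factor of this pathway. Fasn, fatty acid synthase, differed by 2.43 (log2 ratios 0.38 and 0.02 in virgin, 2.67 and 2.58 in pregnant cells, of which 1 was saturated) and did not pass (adjusted p = 0.107). In 19 of the 25 genes both pregnant arrays lay above both virgin arrays. That separation, in either direction, occurred in 47.7% of all genes. The count of 11 became 5 without pregnant replicate 1, 10 without pregnant replicate 2, 3 without virgin replicate 1, 2 without virgin replicate 2 and 3 with median centring, with list medians from 1.06 to 1.67. It was 14 with slide or scan day as a fixed block.

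Sterol synthesis and regulation genes were higher by less. Of 24 tested, 6 rose and 1 fell (29.2%), with a median of 1.12 and of 0.83 on the replicate 2 pair. The list's median was 0.89 in P5 and 0.16 in P6. Sqle, squalene epoxidase, went from log2 ratios of -1.77 and -1.51 in virgin to 0.33 and 0.01 in pregnant cells, a rise of 1.82 ± 0.20 (adjusted p = 0.0039). Both pregnant arrays were above both virgin arrays. Msmo1 and Nsdhl, enzymes of sterol demethylation, rose by 1.77 and 1.16, and Srebf2, which encodes the SREBP2 transcription factor, by 1.17. The gene that fell was Abcg5, a subunit of the transporter that exports sterols: 2.35 and 2.47 in virgin and 0.51 and 0.38 in pregnant cells, a difference of -1.96 ± 0.12 (adjusted p = 0.000421). Abca1, another sterol exporter, differed by -1.64 and did not pass (adjusted p = 0.0649). The 6 higher calls became 3 without pregnant replicate 1, 6 without pregnant replicate 2, 2 without virgin replicate 1, 1 without virgin replicate 2 and 0 with median centring, where the list median was 1.55, while Abcg5 kept its call each time. With slide or scan day as a fixed block 12 rose.

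The promoters of 3 sterol genes that rose are shown because nearly all genes of the list share a letter pattern there. The CCAAT box (CCAAT or ATTGG, both strands searched), a site read by NF-Y in many promoters, occurred in 15 of 16 sterol genes with a listed promoter (93.8%), in 14 of 19 fatty acid genes (73.7%) and in 41.1% of all 27025 genes with one. In the RefSeq sequences for GRCm38.p6, capitals mark 3 matches in Msmo1 (chr8:64733529-64733828, minus strand), 4 in Nsdhl (chrX:72918271-72918570, plus strand) and 1 in Srebf2 (chr15:82147019-82147318, plus strand). A core sterol response element, TCACNCCAC, was found in 1 of the 16 (Hmgcs1), 2 of the 19 (Acsl1 and Mlxipl) and 1.44% of all genes. These are letter matches in a window of 300 bases, not measured binding. The CCAAT box was also present in Abcg5, the sterol gene that fell.
Msmo1: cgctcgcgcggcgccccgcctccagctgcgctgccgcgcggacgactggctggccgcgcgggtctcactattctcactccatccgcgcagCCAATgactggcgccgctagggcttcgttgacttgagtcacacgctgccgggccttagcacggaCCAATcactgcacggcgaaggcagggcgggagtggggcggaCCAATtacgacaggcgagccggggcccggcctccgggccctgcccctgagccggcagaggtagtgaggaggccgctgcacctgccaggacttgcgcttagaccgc
Nsdhl: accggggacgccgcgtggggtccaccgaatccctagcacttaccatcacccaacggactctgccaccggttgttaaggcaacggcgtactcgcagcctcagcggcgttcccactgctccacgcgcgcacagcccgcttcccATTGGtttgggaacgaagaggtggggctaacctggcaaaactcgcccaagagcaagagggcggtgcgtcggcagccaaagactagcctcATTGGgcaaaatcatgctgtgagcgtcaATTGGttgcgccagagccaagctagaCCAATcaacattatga
Srebf2: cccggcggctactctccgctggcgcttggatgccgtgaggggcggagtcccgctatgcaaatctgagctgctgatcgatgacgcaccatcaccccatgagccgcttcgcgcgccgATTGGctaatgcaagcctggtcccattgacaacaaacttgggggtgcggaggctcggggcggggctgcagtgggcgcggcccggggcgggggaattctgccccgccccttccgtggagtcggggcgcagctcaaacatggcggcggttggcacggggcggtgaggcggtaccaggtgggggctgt

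Milk genes were higher in pregnant P4 cells, and by more on replicate 2. Of 19 tested, 4 rose and 0 fell (21.1%), the median difference was 2.13, and on the replicate 2 pair it was 3.19. The list's median was 1.90 in P5 and 1.31 in P6. Olah, the thioesterase that releases medium-chain fatty acids for milk fat, had log2 ratios of -0.26 and 0.21 in virgin cells, where its probe was not well above background, and 3.05 and 3.89 in pregnant cells. The fitted difference was 3.50 ± 0.33 (adjusted p = 0.0022), and the virgin level is only an upper limit. Olah lost its call in the scanner's own log ratios and with the authors' processed values. Cel, the bile-salt-stimulated lipase of milk, went from 1.24 and 0.79 to 3.43 and 4.86 (rise 3.13 ± 0.50), and Plin2, a coat protein of milk fat droplets, from -0.06 and -0.43 to 1.44 and 2.76 (rise 2.34 ± 0.44). Both pregnant arrays were above the virgin pair in each, replicate 2 by more. Csn2 and Csn1s1 had high values in virgin P4 cells too and did not pass. Csn2, beta-casein, had log2 ratios of 6.50 and 5.58 in virgin and 6.63 and 11.31 in pregnant cells, and Csn1s1, alpha-casein, 6.01 and 5.25 against 5.73 and 8.74. Pregnant replicate 1 thus lay at the virgin level and replicate 2 far above it. Wap, whey acidic protein, was 0.74 on both virgin arrays, then 3.91 and 7.12 (difference 4.78, adjusted p = 0.0941). In 11 of the 19 genes both pregnant arrays lay above both virgin arrays, and in 0 below, where 47.7% of all genes separate in either direction. Of the 19, 17 were at least 2-fold higher on pregnant replicate 2 than on replicate 1, and 9 had a saturated spot on a pregnant array. The part of saturation and of the scan in this split was not tested. The 4 calls were again 4 without pregnant replicate 1, became 2 without pregnant replicate 2, 1 without virgin replicate 1, 1 without virgin replicate 2, and 13 without the 3 arrays scanned with pregnant replicate 1. With slide as a fixed block 17 of the 19 passed, and with scan day as a fixed block 16.

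The promoters of Csn1s1 and Csn2 are shown beside these values, since they hold the STAT5-type element TTCNNNGAA, which is its own reverse complement and through which prolactin is known to act. It was present in 4 of 13 milk genes with a listed promoter (30.8%: Csn1s1, Csn1s2a, Csn2 and Glycam1), in 0 of 19 fatty acid genes, 0 of 16 sterol genes and 9.55% of all genes. Capitals mark the 1 match in Csn1s1 (chr5:87665958-87666257, plus strand) and the 1 match in Csn2 (chr5:87699376-87699675, minus strand), both RefSeq, GRCm38.p6.
Csn1s1: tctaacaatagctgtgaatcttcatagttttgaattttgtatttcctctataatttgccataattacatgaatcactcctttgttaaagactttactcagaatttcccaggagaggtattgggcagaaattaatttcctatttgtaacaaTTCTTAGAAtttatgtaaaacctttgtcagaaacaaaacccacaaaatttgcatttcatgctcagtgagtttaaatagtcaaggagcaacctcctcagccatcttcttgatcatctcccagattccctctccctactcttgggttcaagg
Csn2: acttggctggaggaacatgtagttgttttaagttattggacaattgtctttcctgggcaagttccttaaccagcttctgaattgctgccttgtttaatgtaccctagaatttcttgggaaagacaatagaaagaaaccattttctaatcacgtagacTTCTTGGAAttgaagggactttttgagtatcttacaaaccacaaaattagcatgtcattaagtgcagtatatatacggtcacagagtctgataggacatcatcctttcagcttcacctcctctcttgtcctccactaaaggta

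Genes that mark fat cells fell into 2 patterns. Of 14 tested, 3 rose and 0 fell (21.4%): Lep, Lpl and Cd36. Lpl, lipoprotein lipase, which is also made by secretory mammary cells, had log2 ratios of 0.15 and 0.11 in virgin and 3.81 and 3.28 in pregnant cells and rose by 3.41 ± 0.43 (adjusted p = 0.0064). Cd36, a fatty acid transporter, went from 1.94 and 1.10 to 3.79 and 4.11 and rose by 2.43 ± 0.41 (adjusted p = 0.0189). These 3 were high on both pregnant arrays. Others were high on pregnant replicate 1 alone: Adipoq, adiponectin, was 0.61 and 0.51 in virgin cells and 4.54 and 0.65 in pregnant cells. Plin1, the fat cell's droplet coat protein, was 0.37 and 0.40, then 3.47 and 0.43, and Cidec 1.15 and 0.67, then 5.27 and 1.06. In all, 7 of the 14 were at least 2-fold higher on pregnant replicate 1 than on replicate 2, and 2 the reverse. On the replicate 2 pair the list's median was 0.27, with Adipoq at 0.13 and Plin1 at 0.03, while Lep was at 4.50. Lep kept its call with each P4 array left out, and Lpl lost its call without virgin replicate 2. Cd36 lost its call without pregnant replicate 1, without pregnant replicate 2 and without virgin replicate 2. Its difference ran from 2.01 to 2.97 over the alternative settings.

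**Figure D3:**
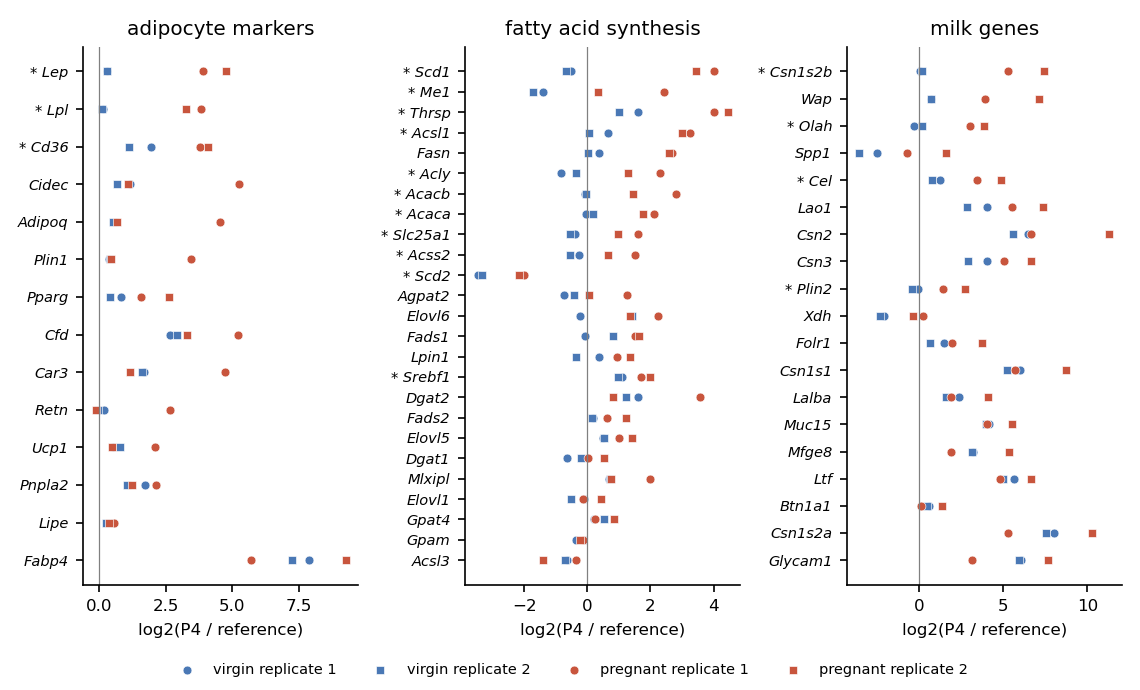
Log2 ratio to the reference on each P4 array (horizontal axis) for the 14 adipocyte markers, 25 fatty acid and triglyceride genes and 19 milk genes tested; blue is virgin, red pregnant, circles replicate 1, squares replicate 2, and asterisks mark called genes. Adipoq, Plin1 and Cidec are high on pregnant replicate 1 only, the caseins highest on pregnant replicate 2, and Lep, Lpl and Scd1 are high on both.

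Among 14 genes associated with mammary stem cells, 1 rose and 4 fell (35.7%), and the median was -0.23. Besides Lgr5, Bcl11b, a zinc finger factor of the basal layer, went from 0.55 and 1.05 to -1.70 and -1.02, a difference of -2.17 ± 0.30 (adjusted p = 0.00928). Procr, the protein C receptor, went from 1.03 and 1.29 to 0.28 and 0.24 (difference -0.90 ± 0.20, adjusted p = 0.0457), and Aldh1a1, a retinaldehyde dehydrogenase, differed by -0.75 (adjusted p = 0.0457). Snai2, which encodes the basal factor Slug, rose: 0.92 and 1.32 in virgin and 3.32 and 3.52 in pregnant cells, a difference of 2.30 ± 0.31 (adjusted p = 0.00826). Each of these 5 had non-overlapping groups, as had 47.7% of all genes, and each was called from these same arrays. Dll1 (0.10), Lgr4 (0.09) and Itgb3 (0.20) had small differences. With median centring 1 member was called, Lgr5, and the list median was 0.26. Leaving out 1 array gave 1 to 2 lower calls. Those lost without virgin replicate 2 and without pregnant replicate 1 included Bcl11b, and Procr lost its call without any 1 of the 4 arrays, with either fixed block and with median centring (adjusted p up to 0.819).

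Wnt pathway genes changed in both directions. Of 32 ligands, receptors and targets tested, 2 rose and 6 fell (25%), with a median of -0.11. The ligand Wnt4, a progesterone target in luminal cells, had log2 ratios of -0.63 and -0.96 in virgin and 0.74 and 0.81 in pregnant cells and rose by 1.56 ± 0.31 (adjusted p = 0.0305), whereas the ligands Wnt11 (-1.25) and Wnt10a (-1.20) fell. Among Frizzled receptors, Fzd10 went from 3.52 and 4.05 to 1.16 and 1.75 (-2.33 ± 0.40), Fzd1 fell by 1.23 and Fzd2 rose by 0.78. The nuclear factor Tcf7 differed by -2.24, and its other probe by -0.12. Nkd2, a feedback inhibitor, went from 2.70 and 3.44 to 0.21 and 0.39 (difference -2.77 ± 0.40, adjusted p = 0.0106). Its pregnant arrays were close together and far below the virgin ones. The target genes Axin2 (-1.31, adjusted p = 0.126) and Nkd1 (-1.57, adjusted p = 0.122) did not pass. Of 12 secreted antagonists tested, 1 fell (8.33%, against 3.73% of all genes). It was Wif1, which binds Wnt ligands, with log2 ratios of 5.80 and 6.09 in virgin and 3.07 and 3.48 in pregnant cells. The difference was -2.67 ± 0.25 (adjusted p = 0.00202), but Wif1 lost its call in the scanner's own log ratios and with the authors' processed values. Of 9 Lgr receptors, R-spondins and their ligases, 1 passed (11.1%), Lgr5. Rspo1, an R-spondin, differed by 1.60 (1.95 and 1.88 against 3.0 and 4.04) and did not (adjusted p = 0.0544). The calls of 2 higher and 6 lower Wnt genes became 0 and 2 without pregnant replicate 1, 0 and 3 without pregnant replicate 2 or virgin replicate 1, and 0 and 0 without virgin replicate 2. Lgr5 and Wif1 kept theirs each time.

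In the IGF system, 2 of 17 tested genes rose and 2 fell (23.5%), with a median of 0.18. The 2 that fell act on the same step: Pappa, above, and Stc2, stanniocalcin 2, known as an inhibitor of the Pappa protease. Stc2 log2 ratios were 2.03 and 1.51 in virgin and -0.85 and -0.86 in pregnant cells, a difference of -2.63 ± 0.21 (adjusted p = 0.00107). Igfbp6, a binding protein, rose by 1.08 (adjusted p = 0.0356). Igfals, the acid-labile subunit of circulating IGF complexes, rose by 1.63 (adjusted p = 0.045), a value from 1 pregnant array because the spot on replicate 1 was an outlier. Its spread is taken from the other groups, so this call has no replicate check in pregnant P4 cells. The binding proteins Igfbp3 (-1.58) and Igfbp5 (-1.56) did not pass. Stc2 also fell in P5 (-3.14) and rose in P6 (3.04). Pappa and Stc2 kept their calls with each P4 array left out. Igfbp6 lost its call without pregnant replicate 2 and Igfals without pregnant replicate 1, and both lost theirs without virgin replicate 1 and without virgin replicate 2.

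Of 13 genes typical of hormone-sensing luminal cells, 1 rose (Wnt4) and 3 fell (30.8% in all), and the median was -0.62. Areg, amphiregulin, the EGF receptor ligand through which estrogen acts in duct growth, had log2 ratios of 2.64 and 2.72 in virgin cells. In pregnant cells, at -0.84 and -1.40, it was not well above background on either array, so that level is only an upper limit (fitted difference -3.80 ± 0.31, adjusted p = 0.00107). Cited1, a transcriptional coregulator, went from 3.07 and 1.82 to -0.21 and 0.35 (difference -2.37 ± 0.41, adjusted p = 0.0202) and Prom1 from 1.32 and 1.28 to 0.26 and 0.23 (difference -1.06 ± 0.14, adjusted p = 0.00792). The receptors themselves did not pass: Esr1 differed by -0.95, Pgr by 0.12 and Prlr by -0.62. Among 13 EGF family genes tested, Areg fell while Nrg1 and Egf rose (23.1% in all). Nrg1, neuregulin 1, made by basal cells, went from -0.12 and 0.65 to 3.55 and 2.37 (rise 2.70 ± 0.42, adjusted p = 0.0137), with 1 other probe in the opposite direction, and Egf from -0.45 and -0.59 to 1.13 and 0.95 (rise 1.56 ± 0.14, adjusted p = 0.00194). Nrg1 and Cited1 lost their calls without pregnant replicate 1 or virgin replicate 1, and Nrg1 and Prom1 without virgin replicate 2. Areg and Egf kept theirs with each P4 array left out.

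The TGF-beta and BMP list of 35 had 2 members that rose and 3 that fell (14.3%), with a median of -0.21 that turned to 0.12 with median centring. Feedback inhibitors fell: Smad7 from 3.35 and 2.80 to 0.80 and -0.09 (difference -2.72 ± 0.38, adjusted p = 0.00876) and Smad6 by 0.82. Fst, follistatin, which traps activins, went from 3.62 and 3.61 to 1.51 and 2.15 (difference -1.79 ± 0.25, adjusted p = 0.00884). Amhr2, the type II receptor for anti-Muellerian hormone, rose from -0.86 and -0.92 to 1.26 and 1.60, by 2.32 ± 0.23 (adjusted p = 0.00243), while its ligand Amh differed by 0.26. Tgfbr2, a TGF-beta receptor, rose by 1.00 (adjusted p = 0.0443), with 1 other probe in the opposite direction. In 18 of the 35 genes both pregnant arrays lay below both virgin arrays, and in 5 above, where 47.7% of all genes separate in either direction. Amhr2 kept its call with each array left out, Smad7 and Fst lost it without virgin replicate 1, Fst also without virgin replicate 2, and Tgfbr2 lost it without any 1 of the 4.

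Chemokines that changed were lower in pregnant cells. Of 22 chemokines, 0 rose and 4 fell (18.2%, median -0.65): Cxcl13 (-2.63), Ccl20 (-2.61), Cxcl12 (-2.07), the ligand of Cxcr4, and Cxcl15 (-0.71). Ccl20 was 1.90 and 3.83 in virgin and -0.04 and 0.55 in pregnant cells, with the virgin arrays far apart and both above the pregnant ones. The 4 calls became 0 without pregnant replicate 1, without virgin replicate 2, with median centring and with slide as a fixed block. The other Cxcl12 probe differed by -0.53. Of 17 interferon-induced genes 14 had a positive difference, as had 45.5% of all genes, and the median was 0.60. Of the 17, 1 passed (5.88%, against 3.73% of all genes): Rtp4, a receptor chaperone (rise 1.14 ± 0.20, adjusted p = 0.0224). Rtp4 lost its call without pregnant replicate 2 and without either virgin replicate. Of 16 pan-leukocyte and lymphoid or myeloid markers none passed. Lyz2, a lysozyme of myeloid cells, was 0.70 and 0.68 in virgin and -0.79 and 0.55 in pregnant cells.

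Of 20 immediate early genes, which respond within minutes to stimulation or tissue dissociation, 1 rose and 2 fell (15%). Ccn1 went from -0.08 and -0.46 to 2.69 and 1.40 (rise 2.31 ± 0.46, adjusted p = 0.0332), Egr3 from 3.42 and 3.35 to 1.72 and 0.47 (difference -2.29 ± 0.41, adjusted p = 0.0235, but -0.30 on its other probe) and Fosl1 from -0.47 and -0.29 to -2.36 on both (difference -1.97 ± 0.25, adjusted p = 0.0064). Stress genes gave no call: Hspa1a was 6.29 and 5.75 against 4.37 and 5.38, and Hspb1 3.41 and 2.97 against 3.45 and 4.65. Among 24 matrix proteases and inhibitors 2 fell (8.33%, against 3.73% of all genes): Adamts1, a metalloprotease (-2.0), and Plat, tissue plasminogen activator (-1.61). Of 11 genes of prolactin and STAT5 signalling 1 fell (9.09%). This was Socs1, a feedback inhibitor of cytokine receptors, from 1.57 and 1.58 to -0.25 and -0.53 (difference -1.97 ± 0.35, adjusted p = 0.0216). Elf5, a STAT5 partner in alveolar cells, differed by 0.63 and did not pass. Without virgin replicate 2, Ccn1, Egr3, Fosl1, Adamts1, Plat and Socs1 all lost their calls.

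The basal identity genes themselves were called in 1 case of 17 (5.88%, against 3.73% of all genes), Snai2. Their median was -0.50 over all arrays and 0.39 on the replicate 2 pair, and 12 of the 17 were at least 2-fold higher on pregnant replicate 2 than on replicate 1. Krt14, a basal keratin, had log2 ratios of 4.66 and 4.17 in virgin and 2.72 and 4.51 in pregnant cells, and Trp63, the basal master regulator p63, 6.31 and 6.82 against 5.56 and 6.22. Contractile genes gave 0 calls of 19, with a median of 0.28 over all arrays and 1.46 on the replicate 2 pair. Acta2, smooth muscle actin, was 4.41 and 4.11 in virgin and 1.90 and 5.98 in pregnant cells, its pregnant replicates on either side of the virgin pair. Oxtr, the oxytocin receptor, was 3.08 and 3.69, then 4.06 and 5.24, with both pregnant arrays above the virgin ones (difference 1.27, adjusted p = 0.113), though its difference was -0.47 in the scanner's own log ratios. A saturated spot on a pregnant array affected 9 of the basal and 11 of the contractile genes, and its part in these differences was not tested.

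Markers of other cells gave few calls. Endothelial markers had 0 of 15 called and a median of 0.05, and 11 of the 15 were at least 2-fold higher on pregnant replicate 2 than on replicate 1. Vwf was 3.60 on both virgin arrays, then 2.63 and 2.50, and Pecam1 1.03 and 1.34, then 1.64 and 2.18. Of 19 fibroblast markers, 1 fell (5.26%, against 3.73% of all genes). This was Fbln1, a matrix glycoprotein, at 0.74 and 1.16 in virgin and -1.49 and -1.66 in pregnant cells (difference -2.53 ± 0.26, adjusted p = 0.00302). None of 8 pericyte markers passed (Cspg4 1.65, Mcam 1.37) and none of 5 erythroid ones. Luminal markers had 0 of 16 called, with Aldh1a3 at -1.55 and Krt19 at 1.30. Of 13 skeletal muscle genes 1 rose (7.69%), Tnni2, and the list's median was -0.02. Ckm, muscle creatine kinase, was -0.03 and 0.05 against 0.07 and -0.09, while Myh2, a fast myosin, was 1.74 and 1.34 against 2.29 and 4.40. Cell cycle genes had 0 of 26 called and a median of -0.52 (Ccne1 -1.23, Mcm6 -1.22). The lists of Notch signalling, basement membrane, glycolysis and the unfolded protein response also had no call, with Hey1 (-1.76, adjusted p = 0.0596), Nid2 (2.25, adjusted p = 0.0743), Bnip3 (1.28) and Xbp1 (1.89) as their largest differences.

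**Figure D4:**
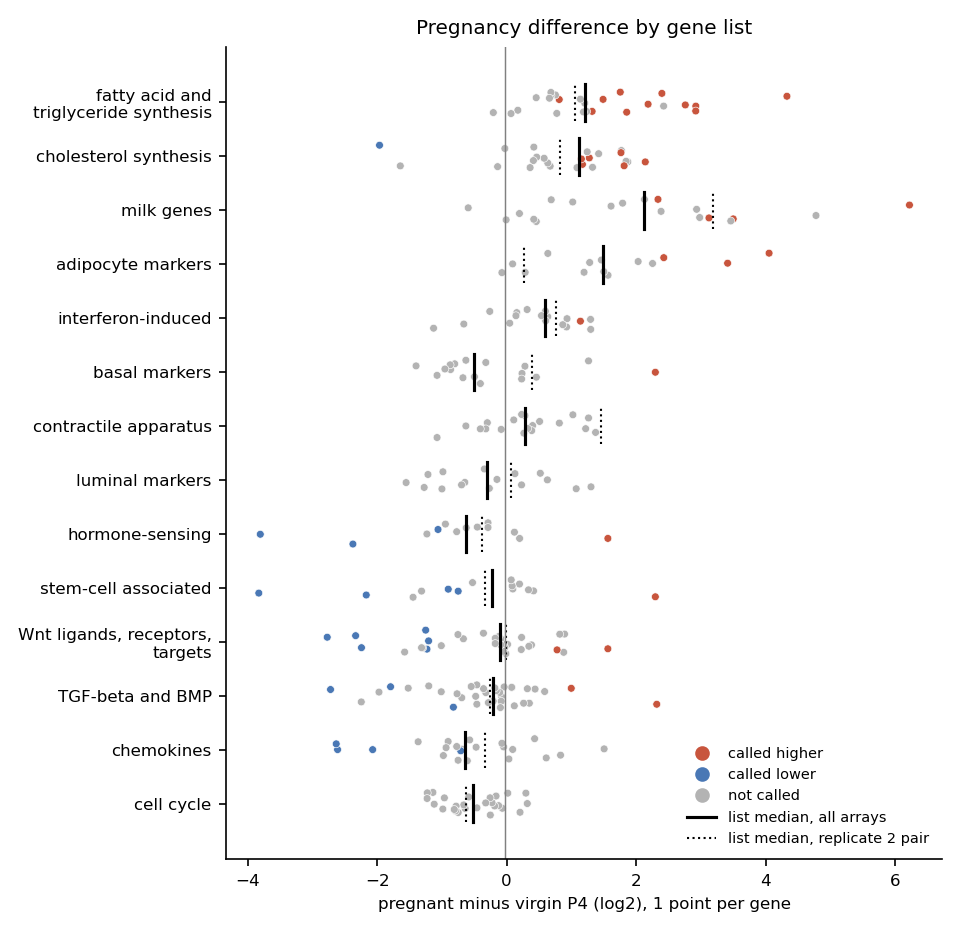
Log2 difference between pregnant and virgin P4 cells (horizontal axis) for 14 gene lists, 1 point per gene tested, red called higher, blue called lower, grey not called. The solid bar is the list's median over all arrays and the dotted bar that of the replicate 2 pair; they lie close for fatty acid synthesis (1.21 and 1.06) and apart for adipocyte markers (1.48 and 0.27) and contractile genes (0.28 and 1.46).

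Whether the pregnancy effect in P4 differed from that elsewhere was tested as the P4 effect minus the mean effect in P5 and P6. This difference was called for 375 of 23644 genes (1.59%), 216 (0.914%) with the P4 effect more positive and 159 (0.672%) with it more negative. Of the 375, 194 also had a called P4 effect and 181 did not, while 249 had a called P5 effect. A called difference can thus come from a change in P5 or P6. Of the 352 genes higher in pregnant P4 cells, 86 had such a difference in the same direction and 5 in the opposite one, and of the 531 lower, 95 and 8. In P5 alone, pregnancy changed 5067 genes (21.4%), among them 143 of the 352 in the same direction and 45 in the opposite one, and 218 and 16 of the 531. In P6 alone, 44 genes passed (0.186%). The count of 375 ran from 36 to 170 with 1 P4 array left out and was 109 without the 3 arrays scanned with pregnant P4 replicate 1. With slide as a fixed block it was 1161 (334 of the 375 among them), with scan day as a fixed block 2864 (all 375 among them), and with the replicate number within a condition, whose arrays share a scan day, as a block 2866.

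Lep separated P4 from the other populations: its pregnancy effect was 4.05 in P4, 0.52 in P5 and 0.09 in P6, an excess of 3.75 ± 0.30 (adjusted p = 0.00232). In the scanner's own log ratios the excess was 2.68 and did not pass (adjusted p = 0.0774). Scd1, by contrast, rose by 5.34 in P5 too and differed by 0.34 in P6 (excess 1.49, adjusted p = 0.11). Fabp3, Csn1s2b, Lpl and Thrsp were likewise higher in P5, by 6.87, 7.29, 6.69 and 3.82, and none of their excesses passed. The 4 largest positive excesses were those of Myh8, Tnni2, Krt19 and Wnt4. Tnni2 and Wnt4 were also called in P4, and Myh8 and Krt19 were not. Tnni2 rose in P4 by 4.20 and fell in P5 by 2.43 (excess 5.12, adjusted p = 0.00178), and Myh8, a developmental myosin, differed by 1.60 in P4, -3.76 in P5 and -3.54 in P6 (excess 5.25, adjusted p = 0.022). The 13 skeletal muscle genes, with Tnni2 but not Myh8 among them, had a median difference of -2.36 in P5, -0.18 in P6 and -0.02 in P4. Their median log2 ratio was 2.63 in virgin and 0.20 in pregnant P5 cells. Wnt4 rose by 1.56 in P4 and fell by 3.62 in P5 (excess 4.17, adjusted p = 0.0031), and Krt19, a luminal keratin, differed by 1.30 in P4, -2.87 in P5 and -2.89 in P6 (excess 4.18, adjusted p = 0.00795).

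Lgr5 and Pappa fell by more in P4 than elsewhere, and both were also called lower in P5 (adjusted p = 0.0485 and 0.0241). Lgr5 differed by -3.83 in P4, -0.53 in P5 and -0.86 in P6 (excess -3.13, adjusted p = 0.000903), but in the scanner's own log ratios the excess was -1.08 and did not pass (adjusted p = 0.45). Pappa differed by -3.64 in P4, -0.60 in P5 and -0.84 in P6 (excess -2.92, adjusted p = 0.000903). The most negative excess was that of Sct, secretin, with log2 ratios of 3.29 on both virgin and 0.38 and 0.45 on the pregnant P4 arrays: it fell by 2.88 in P4 and rose by 2.10 in P5 (excess -3.41, adjusted p = 0.00248). Hs6st2, a heparan sulfate sulfotransferase (-3.35), Mybph (-3.34) and Adcy7, an adenylyl cyclase (-3.30), followed, and Adcy7 did not pass in P5 (-0.05) or P6 (0.45). The other Adcy7 probe differed by -0.34 in P4. Hs6st2 lost its call with any 1 of the 4 P4 arrays left out. Areg fell in all 3 populations (fitted differences of -3.80, -6.70 and -3.17), and its excess did not pass (adjusted p = 0.211).

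**Figure D5:**
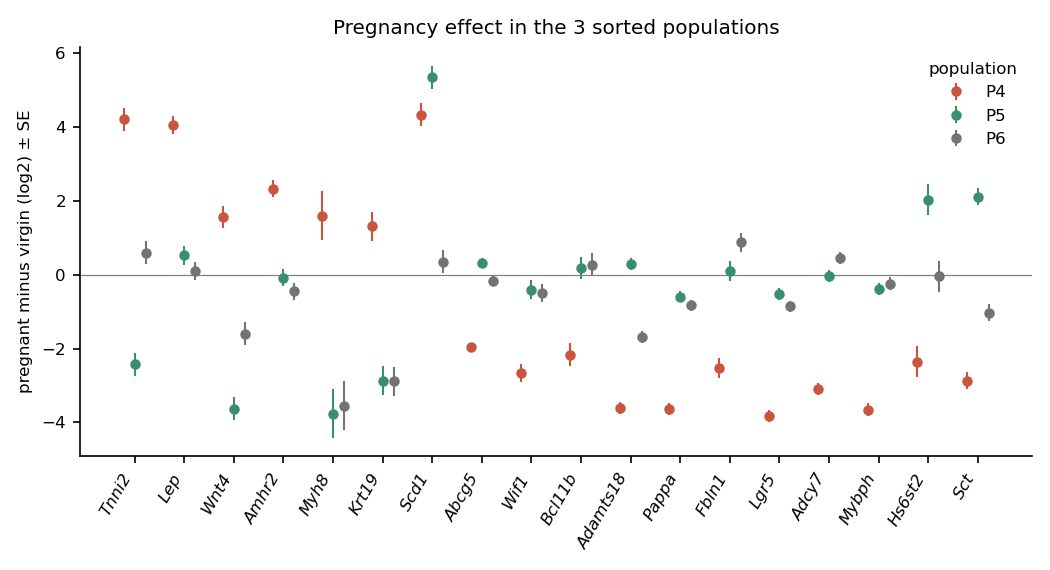
Log2 difference between pregnant and virgin arrays with its SE (vertical axis) for 18 genes in P4 (red), P5 (green) and P6 (grey), 2 arrays per group. Lep, Tnni2 and Amhr2 lie high in P4 alone, Lgr5, Pappa, Adcy7 and Mybph lowest in P4, and Scd1 is high in P4 and P5.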

How the data were processed

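RNA was labelled with the Agilent Quick Amp kit and hybridised to 2-colour Agilent mouse arrays, per the labels' protocols. Per the file headers, the authors deposited Feature Extraction 9.5.3.1 output: mean spot and local background intensities per channel, 0 or 1 quality flags, and a log10 ratio of Cy5 to Cy3 already background-subtracted and dye-normalized by the scanner software. The authors' processed values, deposited for the whole series, are log2 ratios. On each of the 12 arrays they followed the scanner's Cy5 over Cy3 ratio, put on the log2 scale, with a correlation of at least 0.990 and a slope of 1.00, which settles their scale and direction. Their medians per array ran from -0.02 to 0.10, and whether they were centred beyond the scanner's own normalization is not given in the sources used here. The headers name mm7 as the design's build, and no array coordinate is given here.

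From the intensities, local backgrounds that the scanner marked as non-uniform were replaced by the array's median, then normexp (offset 50) and within-array loess with control spots at weight 0 were applied in limma 3.58.1 (R 4.3.3), outlier spots were left out and spots of a probe averaged. Of 41174 probes, 34804 that were well above background in Cy5 on all arrays of at least 1 of 6 groups were kept, and the brightest probe stood for a gene (7702 genes had several). RefSeq supplied symbols for 22951 probes by accession, 6659 by symbol and 3109 by synonym, and 8455 kept the array's name. The groups were the 6 combinations of P4, P5 and P6 with virgin and pregnant. A model with 6 group means over 12 arrays, with 6 residual degrees of freedom, was fitted with lmFit and eBayes, and p-values were adjusted by Benjamini-Hochberg over all genes. SEs come from that pooled spread. Arrays give no read depth, and 2 per group limit the precision. P4 arrays had 78.7% to 86.7% of probes well above background in Cy5. The 2 arrays of GFP-sorted cells were not used. The fit was tested on simulated data.

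Named genes were the 12 called genes with the largest increase and the 12 with the largest decrease among those with a RefSeq symbol and the same sign on the replicate 2 pair, then Lep, Lgr5, Scd1 and Pappa, then up to 4 called members of each of 32 gene lists by size of the difference (or the 2 largest differences where none was called), and the 4 largest differences from P5 and P6 each way. Other list members, such as the caseins, Adipoq, Fasn and Axin2, are named as values from the lists. Some members that the rule names are counted with their lists but not reported here. The members, the lists and this rule were chosen with earlier results of these data known. Promoters were searched with Python 3.11.15 and pandas 2.3.3, and figures drawn with matplotlib 3.10.9. A promoter was listed for 13 of 19 milk, 19 of 25 fatty acid and 16 of 24 sterol genes. Alternatives covered background, normalization, filter, probe choice, samples, slide, scan day and the replicate number as a block. Replicate numbers did not pair samples across conditions (correlations of deviations from the group means of -0.21 to 0.15 over 9 pairs), while within a condition they did (0.31 to 0.69 over 6 pairs), where replicates of a number share a scan day.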

Additional observations from a re-analysis of the deposited data

Results flagged for a closer look

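For 25 named genes the pregnancy effect in P4 differed from the mean effect in P5 and P6 (interaction contrast in limma, adjusted p under 0.05; log2 values of P4 minus the mean of the others). None of these differences was weighed against an explanation. The P4 effect was the more positive for Myh8 (5.25), Tnni2 (5.12), Krt19 (4.18), Wnt4 (4.17), Lep (3.75), Amhr2 (2.59), Cxcl15 (1.81), Rtp4 (1.65) and Prom1 (1.55). For Cxcl15 and Prom1 both effects were negative, and the fall in P5 was the larger (-4.39 and -4.51, against -0.71 and -1.06 in P4).

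It was the more negative for Sct (-3.41), Hs6st2 (-3.35), Mybph (-3.34), Adcy7 (-3.30), Lgr5 (-3.13), Fbln1 (-3.01), Pappa (-2.92), Adamts18 (-2.91), Nkd2 (-2.63), Stc2 (-2.57), Bcl11b (-2.39), Wif1 (-2.22), Fosl1 (-2.14), Plat (-2.12), Abcg5 (-2.04) and Egf (-1.03). Egf rose in P4 (1.56) and by more in P5 (4.72). Stc2 fell in P5 by more than in P4 and rose in P6, so its fall was not particular to P4. Tnni2, Wnt4, Mybph, Adamts18 and Abcg5 kept this call under each of 19 alternatives. Egf lost it under 11, among them each P4 array left out (-1.12 to -0.94). Without virgin P4 replicate 2, Myh8 was 5.34, Krt19 3.89, Amhr2 2.55, Bcl11b -2.14, Nkd2 -2.26 and Wif1 -2.08, and none of these 6 passed.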

How the results depend on the processing

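Called genes in P4 numbered 883, and the difference from P5 and P6 was called for 375. The 2 counts were 445 and 145 under the scanner's own ratio, 460 and 134 with the authors' processed table, 576 and 164 with local backgrounds as given, and 187 and 73 with median centring in place of loess. Without the 3 arrays of pregnant replicate 1 they were 543 and 109, with slide as a fixed block 1237 and 1161, with scan day as a fixed block 1752 and 2864, and with slide as a random block 2048 and 1945. They ran from 156 to 480 and from 36 to 170 with 1 P4 array left out, and the 4 P4 arrays alone gave 59. Normexp offset 16, scale normalization, the other 2 filters and the mean over probes left both counts within 1.5 times. Median centring moved the median of all genes to 0.15 for P4 and 0.20 for the difference from the others, and the share of higher calls from 39.9% to 56.7% and from 57.6% to 87.7%; relative to that shift the fatty acid list's median was still positive (1.67). All 883 genes kept their sign under each alternative that gave them a value. The replicate number as a block gave 1274 and 703 called genes, and as a block within condition 4453 and 2866. Of the 68 named called genes, 53 lost their call with the 4 P4 arrays alone, 40 without virgin replicate 2, 33 with median centring and 28 without pregnant replicate 1. Reversed signs occurred in genes that had not passed: Oxtr at -0.47 under the scanner's own ratio and at the same -0.47 from the authors' table, and Lyz2 at 0.17 with slide as a fixed block. The cause of these changes was not tested. Signal over background limits 148 genes that were dim on all 4 P4 arrays, and saturation on pregnant replicate 1 limits the brightest.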
